A study of Papio papio with 23 samples.

Results

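Peripheral whole blood drawn 1 day after irradiation was compared between baboons that went on to category H2-3 of the haematological acute radiation syndrome and baboons that went on to category H1-2. The arrays were chosen by their labelled category and day, which gave 5 baboons in H2-3 and 4 in H1-2, so 9 of the 23 arrays in the series. No gene passed a false discovery rate of 0.05 in this comparison. Among the genes with the smallest p-values, B cell genes and immunoglobulin gene segments were lower in H2-3. A small set led by ID1, MB21D2 and RND3 was higher. The median difference of the B cell genes was -0.11 within slide 1 and -3.03 within slide 2. That of the immunoglobulin segments was -0.02 and -2.48. Among day 1 and unexposed arrays, the probes of ID1, MB21D2 and RND3 were well above background only in H2-3, the category where they are high.

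All animals were adult male Papio papio (mean age 8.1 ± 3.3 years, as the labels give it). They were anaesthetised and exposed to gamma rays from a cobalt source, over the total or part of the body, at an equivalent whole body dose of 2.5 or 5 Gy. The labels do not tie a dose or a field to an animal, so dose, field and category cannot be told apart. The category is the grade that developed later; on day 1 it had not yet been reached. The 5 H0 arrays hold blood taken before irradiation; whether those baboons are the irradiated ones is not given. The same 4 and 5 irradiated baboons were sampled again on day 2. RNA from 2.5 ml of blood was labelled from 100 ng with Cy3 and hybridised to a human Agilent array, so every level is read by a probe designed on human sequence.

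Ionising radiation breaks DNA, and blood cells differ widely in how they answer. B lymphocytes and naive T cells die readily by p53-driven apoptosis, and B cells are counted among the most radiosensitive cells of the blood. Neutrophils and monocytes are far more resistant over the first days, and stress releases mature and immature granulocytes from the marrow. The haematological syndrome itself follows from loss of marrow precursors. In whole blood RNA, fewer cells of a type and less RNA per cell cannot be told apart.

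A level below is the log2 of the background-subtracted spot signal minus the 75th percentile of the same array, so 0 marks a probe at that percentile. Levels of different probes are not set against each other, since probes differ in how well they bind baboon RNA. The first 30 bases of the 60-base probes are shown for ID1 and UCHL1, which had the smallest p-values in the 2 directions, and for POU2AF1 and MZB1, where 2 probes to 1 gene gave different answers. They are printed in lower case, 5′ to 3′, as the array files give them, and the positions are those of the whole probe on hg19.

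ID1 at chr20:30194158-30194217, plus strand: gcagacattttaaaaaatggtcacgtttgg
UCHL1 at chr4:41270340-41270399, plus strand: tctaacgctttaaatggctactttggtttc
POU2AF1, brighter probe, at chr11:111223004-111223063, minus strand: ttttctgggaaatgacttttctgggaaatg
POU2AF1, other probe, at chr11:111267532-111267591, minus strand: ggcttggtccttgcctgtaagaaactaaca
MZB1, brighter probe, at chr5:138723543-138723602, minus strand: ggacatgtttgcactacttgggggagtttg
MZB1, other probe, at chr5:138724342-138724401, minus strand: gtgcttcctgctcaaacggctctcttgcca

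The brighter POU2AF1 probe averaged 3.04 in H1-2 and -0.20 in H2-3, while the other averaged -2.17 and -2.13. The brighter MZB1 probe differed by -2.57 between the categories and the other by -0.47. The members of each pair lie apart on the chromosome, and which transcripts each one reads in the baboon was not tested. The brightest probe that passed the filter stands for its gene in everything that follows.

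Probes well above background made up 46.4% ± 0.84 (SD, n = 4) of an H1-2 array and 46.2% ± 2.8 (SD, n = 5) of an H2-3 array (exact permutation test over 126 splits, two-sided, p = 0.952). H2-3 baboon 1 had the lowest share, 41.4%, and lay on slide 3 without an H1-2 array. Slide 1 held H1-2 baboons 1 and 2 with H2-3 baboons 2 and 3, and slide 2 held H1-2 baboons 3 and 4 with H2-3 baboons 4 and 5. All 9 arrays were scanned on 1 day. Since each slide holds its own baboons, a difference between the slides and a difference between those baboons cannot be told apart, and values within each slide are given beside the main results. H0 lay on slides 3, 6 and 7.

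Of 21130 genes tested with limma, 0 had an adjusted p of at most 0.05, so 0% were called, and the smallest adjusted p was 0.118. An unadjusted p under 0.05 was found for 1224 genes (5.79%), of which 756 (3.58%) were lower and 468 (2.21%) higher in H2-3, where 1056 would be expected by chance. The categories did not overlap for 435 genes (2.06%), 226 lower (1.07%) and 209 higher (0.989%). Of the 100 genes with the smallest p, 86 were lower in H2-3. A difference of at least 2-fold was fitted for 673 genes (3.19%), 497 lower (2.35%) and 176 higher (0.833%). The median difference over all genes was 0.04 and the median standard error 0.29.

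Single arrays decided whether any gene was called. Without H1-2 baboon 2 there were 14 calls, 13 of them lower in H2-3, and without H2-3 baboon 3 there were 3, all lower. Each of the other 7 arrays could be left out with 0 calls. Weighting arrays by their quality gave 9 calls, 8 of them lower: UCHL1, BLK, TNFRSF13B, MMAB, BHLHE41, LOC96610 and the immunoglobulin segments ENST00000390294 and ENST00000390602; MB21D2 was the 1 called higher.

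**Figure D1:**
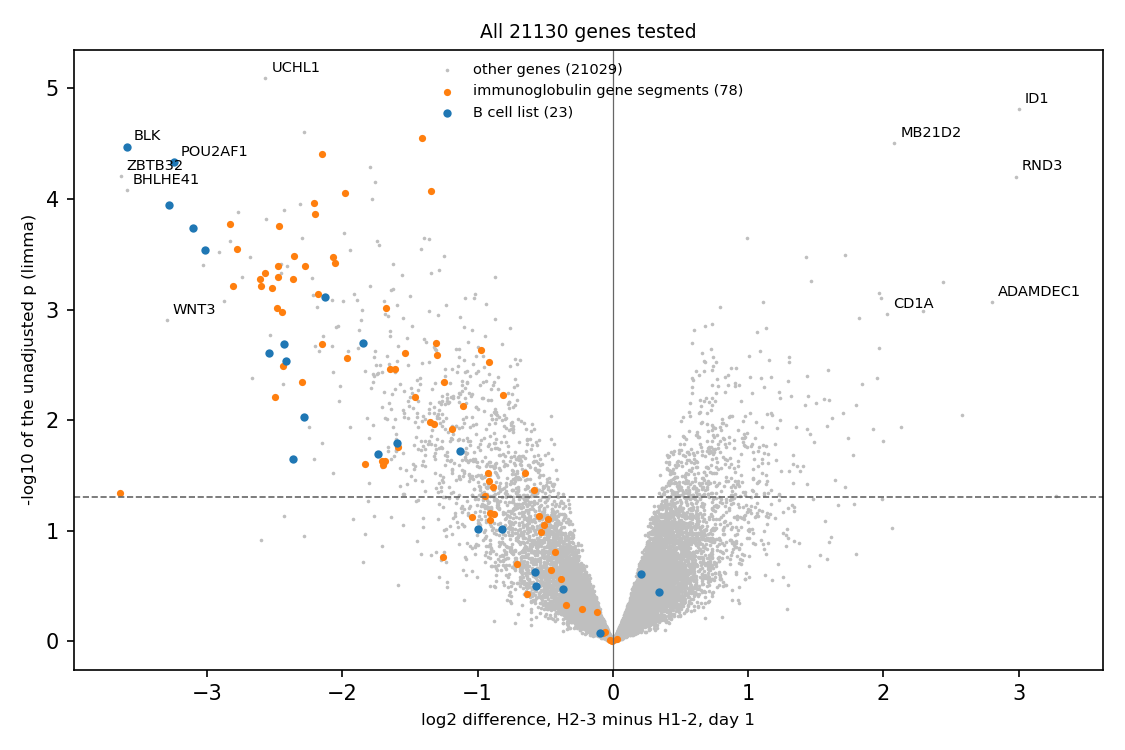
Each point is 1 of the 21130 genes tested, with the log2 difference (H2-3 minus H1-2, day 1) on the horizontal axis and -log10 of limma's unadjusted p on the vertical axis; the dashed line marks the unadjusted threshold. The B cell list (23 genes) and the immunoglobulin gene segments (78) lie mostly on the left, and none of the genes passed the test after adjustment.

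The B cell genes had the lowest median difference of the 24 gene lists examined. Of 25 listed genes, 23 passed the filter on dim probes, and MS4A1 and PAX5 did not. None of the 23 was called (background 0%), 15 were lower at an unadjusted p under 0.05 (background 3.58%) and 0 higher, and for 6 the categories did not overlap (background 1.07%). Their median difference was -1.85, against 0.04 over all genes, and 21 of the 23 had a negative difference.

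BLK, a Src family kinase that acts downstream of the B cell receptor, read 1.83, 0.36, 3.03 and 2.75 in H1-2 baboons 1 to 4. In H2-3 baboons 1 to 5 it read -2.31, -1.09, -0.36, -2.44 and -1.78, and was well above background on 4 of the 5 arrays. All H2-3 arrays lay below all H1-2 arrays, with a difference of -3.59 ± 0.69 (SE; adjusted p = 0.118, limma). POU2AF1, the B cell coactivator of octamer-binding factors, read 2.53, 1.68, 3.98 and 3.97 in H1-2 against -2.23, 0.66, 1.59, -0.49 and -0.53 in H2-3. The categories again did not overlap and H1-2 baboon 2 lay just above H2-3 baboon 3, and the difference was -3.24 ± 0.64 (SE; adjusted p = 0.121).

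BANK1, an adaptor of B cell receptor signalling, read 1.01, -0.29, 2.17 and 1.49 in H1-2 and -3.68, -1.5, -0.68, -1.62 and -2.13 in H2-3. FCRLA, an Fc receptor-like protein kept inside B cells, read -0.83, -1.86, 1.54 and 0.79 against -3.25, -4.20, -2.27, -3.70 and -2.55. Neither gene's categories overlapped, FCRLA passed the background call on 2 of the H2-3 arrays, and the differences were -3.02 ± 0.70 and -3.10 ± 0.69 (SE; adjusted p = 0.159 and 0.148). EBF1, a factor that specifies the B lineage, was also without overlap at -2.54 ± 0.74 (SE; adjusted p = 0.337), but was well above background on 1 of the 5 H2-3 arrays. CD22, an inhibitory lectin of B cells, was not well above background on any H2-3 array and was at least 2.09-fold lower there.

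For other B cell genes H1-2 baboons 3 and 4 stood apart. CD79B, the beta signalling chain of the B cell receptor, read 0.05, -1.13, 2.64 and 2.25 in H1-2 and between -2.04 and -0.25 in H2-3. CR2, the complement receptor of mature B cells, read -3.39, -4.10, 0.01 and 0.08 in H1-2 and between -5.09 and -2.71 in H2-3. VPREB1, which pairs with heavy chains in B cell precursors, read -3.41, -4.29, 0.48 and 0.19 in H1-2 and between -5.12 and -1.19 in H2-3. In each of the 3 genes these 2 baboons stood above every other array. CD79B differed by -2.43 ± 0.69 (SE; adjusted p = 0.322). The probes of CR2 and VPREB1 each passed the background call on 2 of the H1-2 arrays and 1 of H2-3, so most of their low readings have no order and no size is given.

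Not every B cell marker followed. CD79A, the alpha signalling chain, read 6.92, 6.34, 7.91 and 8.01 in H1-2 and 5.80, 6.71, 7.42, 7.33 and 6.36 in H2-3, a difference of -0.57 ± 0.56 (SE; adjusted p = 1). CD37, a tetraspanin found on B cells and other leukocytes, differed by 0.21 ± 0.18, and CD72, an inhibitory lectin of B cells, by -0.09 ± 0.44 (SE). BTK, a kinase that B cells share with myeloid cells, differed by 0.34 ± 0.36.

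**Figure D2:**
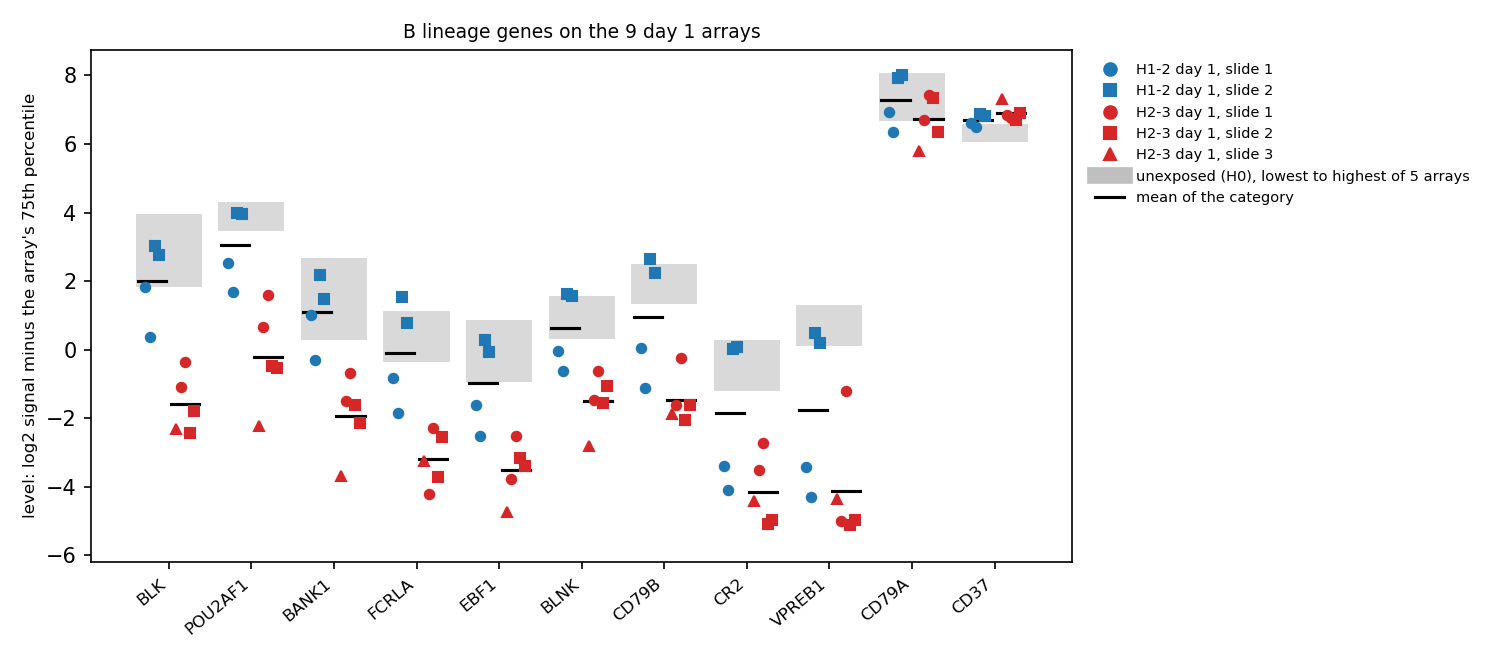
Levels (log2 signal minus the array's 75th percentile, vertical axis) of 11 B lineage genes on the 9 day 1 arrays; symbols give the slide, black lines the category means and grey bars the range of the 5 unexposed arrays. H1-2 baboons 3 and 4 (blue squares) lie within or near the unexposed range for most genes, and the H2-3 arrays (red) lie below it for BLK, POU2AF1, BANK1, FCRLA, EBF1, BLNK and CD79B.

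The mean level of the B cell list was 0.70, 0.07, 2.32 and 2.16 in H1-2 baboons 1 to 4 and -0.99, -0.30, 0.49, -0.67 and -0.59 in H2-3 baboons 1 to 5. The unexposed arrays ranged from 1.54 to 2.27. In H1-2, baboons 3 and 4 were at or just above the top of the unexposed range and baboons 1 and 2 were below it, and all H2-3 baboons but baboon 3 were lower than every H1-2 baboon. Within slide 1 the median difference of the list was -0.11 and 0 of its genes were lower at an unadjusted p under 0.05. Within slide 2 the median was -3.03, with 16 such genes (background 4.6%) and 11 called, all lower (background 0.838%). BLK and BANK1 were nevertheless lower in H2-3 on slide 1 too, by differences of -1.82 and -1.46, beside -5.00 and -3.71 on slide 2.

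Genes outside the list that take part in B cell maturation were among the leading genes. TNFRSF13B encodes TACI, a receptor for the survival factors BAFF and APRIL; it read -2.50, -3.82, -2.09 and -2.47 in H1-2 and -4.39, -5.13, -4.77, -4.38 and -3.93 in H2-3. Its probe passed the background call on 2 of the 4 H1-2 arrays and on none of H2-3, so no size is given. ZBTB32, a zinc finger repressor of lymphocytes, read 2.67, 1.02, 3.17 and 1.79 against -2.88, -0.63, -0.17, -1.87 and -1.84. The categories did not overlap for ZBTB32, whereas most TNFRSF13B readings were not well above background and have no order (adjusted p = 0.121 for both genes). A second ZBTB32 probe differed by -0.28.

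BHLHE41, a transcriptional repressor with a role in B-1 cells, read -0.58, -1.81, 0.33 and 0.10 in H1-2 and was not well above background on any H2-3 array, at least 5.74-fold lower (adjusted p = 0.123). UNG, the uracil glycosylase used in base excision repair and antibody class switching, read 1.13, 0.66, 1.94 and 2.08 in H1-2 and -2.75, -0.01, 0.19, -0.72 and -1.0 in H2-3. Its categories did not overlap, and the difference was -2.31 ± 0.49 (SE; adjusted p = 0.125). The differences within slides 1 and 2 were -0.81 and -2.87 for UNG.

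Of 9 plasma cell genes tested, 3 were lower at an unadjusted p under 0.05 (background 3.58%) and the median was -0.22. MZB1, a chaperone of antibody assembly, read 0.26, 1.22, 2.86 and 2.98 in H1-2 against -2.07, 0.30, 0.52, -1.37 and -1.06 in H2-3, a difference of -2.57 ± 0.56 (SE; adjusted p = 0.139). H1-2 baboon 1 lay just below H2-3 baboons 2 and 3. TXNDC5, a disulfide isomerase of the secretory pathway, did not overlap between categories and differed by -1.13 ± 0.30 (SE; adjusted p = 0.239). IGJ, the joining chain of IgM and IgA, differed by -1.05 ± 0.46. XBP1 and PRDM1, which drive plasma cell formation and also act in other blood cells, differed by 0.32 ± 0.17 and -0.13 ± 0.32 (SE; adjusted p = 0.954 and 1).

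The array also carries probes for single immunoglobulin gene segments, named in its files by transcript. A set of 78 such features was put together after the values had been seen, so it is described without a test. Of these, 77 had a negative difference, 56 were lower at an unadjusted p under 0.05 (background 3.58%) and 0 higher (background 2.21%), and 0 were called (background 0%). On 34 of the 78 every day 1 array was well above background, and on 14 no H2-3 array was. Their median difference was -1.38. They made up 25 of the 100 genes with the smallest p. Segments of 1 family are near-identical, so their probes may read the same transcripts and the features are not independent.

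The heavy chain constant segment of IgM (ENST00000390559) read 1.28, 2.04, 4.89 and 5.06 in H1-2 baboons 1 to 4 and -0.77, 1.12, 2.05, -0.25 and 0.38 in H2-3 baboons 1 to 5. Baboons 3 and 4 of H1-2 stood far above the rest, and H2-3 baboon 3 lay just above H1-2 baboon 2. The difference was -2.81 ± 0.70 (SE; adjusted p = 0.192). The kappa constant segment (ENST00000390237) differed by -2.48 ± 0.59 and the constant segment of IgA1 (ENST00000390547) by -2.48 ± 0.65 (SE). The segment of IgG1 (ENST00000390549) differed by -0.51 ± 0.29 (SE; adjusted p = 1). IGLL5, an immunoglobulin lambda-like gene that shares sequence with the lambda constant segments, read 5.94, 6.17, 7.76 and 7.98 against 1.97, 5.39, 5.76, 3.28 and 4.55, without overlap (difference -2.77 ± 0.60, adjusted p = 0.132).

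By class, the median differences were -1.09 for 28 heavy variable segments, -2.25 for 18 kappa variable, -1.04 for 23 lambda variable and -2.48 for 9 constant segments. The mean over all 78 was -0.54, -0.51, 1.07 and 1.17 in H1-2 and -1.84, -0.64, -0.57, -1.5 and -1.28 in H2-3, with unexposed arrays from 0.20 to 0.87. Those of H1-2 baboons 3 and 4 exceeded the unexposed range and all other arrays fell short of it. The 78 had a median of -0.02 within slide 1 and -2.48 within slide 2. The heavy variable segment ENST00000390606 was the 1 feature of 21130 called for a difference between the slides (adjusted p = 0.0451), but its probe passed the background call on 2 of the H1-2 arrays and none of H2-3, so the sizes are not given.

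Of 21 T cell genes tested, 7 were lower and 1 higher at an unadjusted p under 0.05 (background 3.58% and 2.21%), and the median was -0.91. CD3G, which carries signals from the T cell receptor, read 2.74, 2.85, 3.67 and 3.07 in H1-2 and 0.82, 2.93, 2.86, 1.64 and 1.46 in H2-3, a difference of -1.14 ± 0.42 (SE; adjusted p = 0.532). SIT1 and UBASH3A, which dampen T cell receptor signals, differed by -1.36 ± 0.47 and -1.23 ± 0.43 (SE; adjusted p = 0.492 and 0.5). CD3E differed by 0.11 ± 0.23.

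H2-3 baboon 1 was the lowest array for CD3G, SIT1 and UBASH3A, and baboons 2 and 3 of that category lay among the H1-2 arrays. The list mean was 1.88, 1.54, 2.62 and 2.22 in H1-2 and 0.26, 2.31, 1.83, 1.28 and 1.19 in H2-3, and the unexposed arrays ranged from 2.60 to 3.54. The median was 0.32 within slide 1 and -1.24 within slide 2. CD4, which T cells share with monocytes, was the exception: it read 7.43, 7.52, 7.21 and 7.26 in H1-2 and 7.85, 7.90, 7.81, 7.93 and 8.22 in H2-3, without overlap. Its difference was 0.59 ± 0.17 (SE; adjusted p = 0.319), with 0.38 and 0.84 within the slides.

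Genes of naive lymphocytes had a median of -1.26 over 9 tested, 4 of them lower at an unadjusted p under 0.05 (background 3.58%). CCR7, the receptor that guides naive cells to lymph nodes, read 3.22, 3.17, 5.60 and 4.72 in H1-2 against 1.26, 4.24, 4.4, 1.97 and 1.26 in H2-3. The ranges overlapped, and the difference of -1.55 ± 0.74 (SE; adjusted p = 0.856) was 1.12 within slide 1 and -3.54 within slide 2. IL7R, the receptor of the survival cytokine IL-7, had 0.23 and -2.17, and TCF7, a factor of naive and memory T cells, 0.85 and -3.0. The sign of these 3 genes therefore differed between the slides.

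Natural killer and cytotoxic genes had a median of -0.51 over 24 tested, with 5 lower and 0 higher at an unadjusted p under 0.05 (background 3.58% and 2.21%). That median was 0.13 within slide 1 and -1.31 within slide 2. GZMK, a granzyme of memory T cells, read 0.38, 0.49, 1.44 and 0.81 in H1-2 and -1.71, 0.03, 0.52, -1.27 and -1.61 in H2-3, a difference of -1.59 ± 0.46 (SE; adjusted p = 0.325). TBX21, the T-bet factor of cytotoxic and Th1 cells, differed by -1.44 ± 0.48 (SE; adjusted p = 0.444). PRF1 and GZMB, the perforin and granzyme of killing granules, differed by -0.75 ± 0.58 and -0.38 ± 0.49 (SE; adjusted p = 1 for both).

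Monocyte genes had differences of the other sign. Of 15 tested, 4 were higher and 0 lower at an unadjusted p under 0.05 (background 2.21%), and the median was 0.56, with -0.12 within slide 1 and 1.33 within slide 2. CSF1R, the receptor of the macrophage growth factor, read 7.35, 7.84, 6.73 and 6.72 in H1-2 and 7.68, 7.69, 7.80, 7.85 and 8.26 in H2-3. Baboons 3 and 4 of H1-2 were low and baboons 1 and 2 were close to H2-3, so the difference of 0.69 ± 0.25 (SE; adjusted p = 0.52) was 0.14 within slide 1 and 1.33 within slide 2. CPVL, a carboxypeptidase of macrophages, differed by 0.91 ± 0.29 (SE; adjusted p = 0.399), with 0.24 and 1.56 within the slides. CD14, the monocyte coreceptor for lipopolysaccharide, differed by 0.27 ± 0.25. The list mean of H2-3 ran from 4.51 to 4.99, that of H1-2 was 4.54, 4.84, 3.57 and 3.68, and the unexposed arrays ran from 2.93 to 3.87.

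Macrophage and dendritic genes had a median of 0.61 over 12 tested, 3 of them higher at an unadjusted p under 0.05 (background 2.21%). CD1A, which presents lipid antigens to T cells, read 0.09, -0.26, -0.33 and 0.99 in H1-2 and 2.27, 1.62, 1.92, 2.56 and 2.39 in H2-3. The categories did not overlap, and the difference of 2.03 ± 0.54 (SE; adjusted p = 0.23) was alike within both slides, 1.85 and 2.14. CD1B, of the same family, differed by 1.5 ± 0.51 (SE; adjusted p = 0.445), with 2.24 and 1.59 within the slides, and H2-3 baboon 1 lay within the H1-2 range. CD1C differed by 0.54 ± 0.34.

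ADAMDEC1, a secreted metalloprotease of macrophages and dendritic cells, read -1.14, 0.23, -4.41 and -2.21 in H1-2 against 0.93, 1.22, 0.58, 0.51 and 1.37 in H2-3. All H2-3 arrays were above all H1-2 arrays, and the difference was 2.80 ± 0.73 (SE; adjusted p = 0.207), with 1.36 and 4.25 within the slides. MARCO, a scavenger receptor for bacteria, read 0.31, 3.00, -1.34 and -1.06 against 1.76, 1.22, 1.06, 2.31 and 3.72. Here H1-2 baboon 2 stood above 4 of the 5 H2-3 baboons, and the difference of 1.79 ± 0.89 (SE; adjusted p = 0.903) was -0.52 within slide 1 and 4.21 within slide 2. No unexposed array was well above background for MARCO.

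Of 22 neutrophil genes tested, 0 were higher and 1 lower at an unadjusted p under 0.05 (background 2.21% and 3.58%), and the median was 0.33. CD177, a surface protein of activated neutrophils, read 5.96, 5.01, 5.26 and 6.70 in H1-2 and 7.16, 6.22, 5.59, 5.74 and 5.82 in H2-3 (difference 0.37 ± 0.72, adjusted p = 1). HAL, histidine ammonia-lyase, was the gene lower in H2-3, by a difference of -1.40 ± 0.58 (SE; adjusted p = 0.677), with H1-2 baboon 1 at 2.07 and the other arrays between -1.12 and 0.90.

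Granule genes of immature neutrophils had a median of 0.44 over 19 tested, 2 of them higher at an unadjusted p under 0.05 (background 2.21%). MPO, the myeloperoxidase of primary granules, read -2.32, -1.48, -2.39 and -3.44 in H1-2 and -0.77, -1.21, -0.75, -1.30 and -0.89 in H2-3, without overlap. Its difference was 1.42 ± 0.48 (SE; adjusted p = 0.451), 0.92 within slide 1 and 1.82 within slide 2. RNASE3, a ribonuclease of eosinophil and neutrophil granules, differed by 1.03 ± 0.48. Eosinophil and basophil genes had a median of 0.03 over 9, platelet genes -0.01 over 15 and erythroid genes -0.10 over 16. SIGLEC8, a lectin of eosinophils, was the 1 gene of the 3 lists under that p, and was higher (background 2.21%). Its difference was 0.88 ± 0.31 (adjusted p = 0.5).

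**Figure D3:**
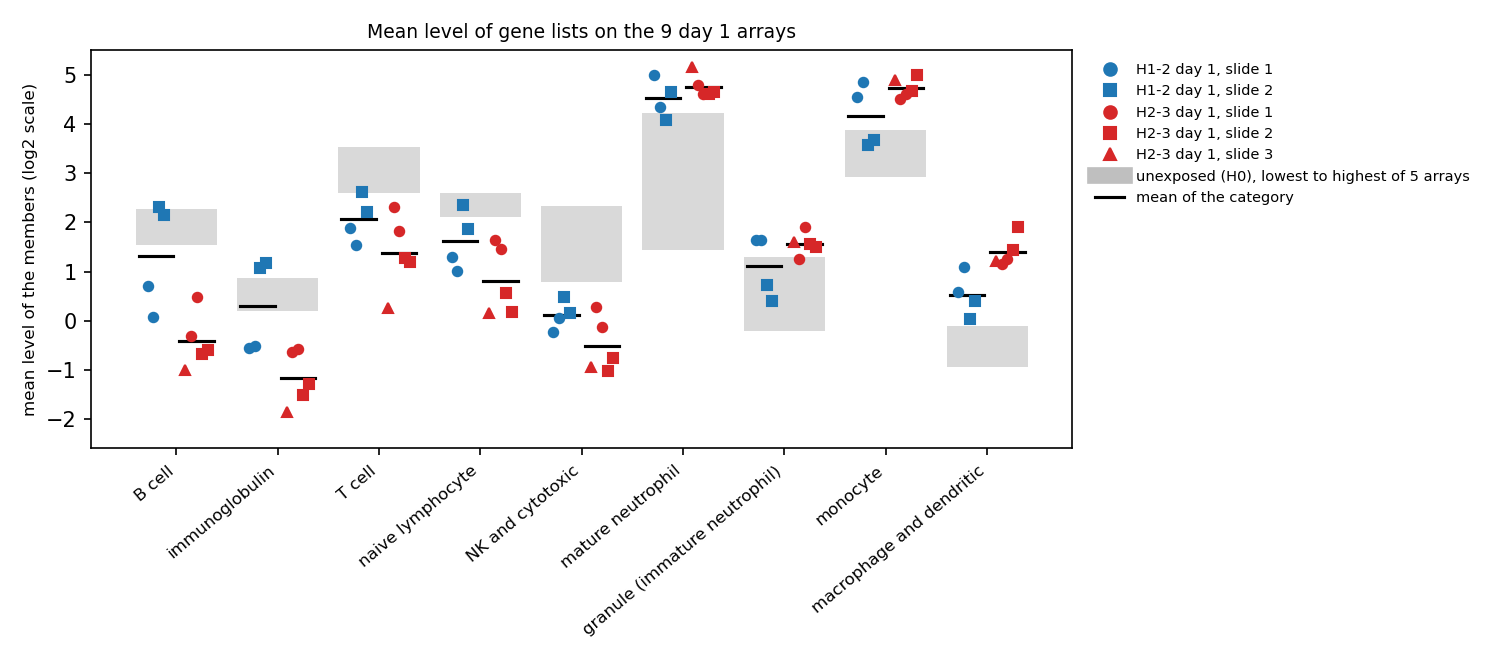
Mean level of the tested members of 8 gene lists and of the 78 immunoglobulin segments (vertical axis, log2 scale) on each of the 9 day 1 arrays; symbols give the slide and grey bars the range of the 5 unexposed arrays. H1-2 baboons 3 and 4 (blue squares) have the highest B cell and immunoglobulin means and the lowest monocyte and granule means of the 9.

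ID1, MB21D2 and RND3 had the smallest p-values among the genes higher in H2-3 and belong to none of these lists. ID1, an inhibitor of helix-loop-helix factors that BMP signals induce, had levels of -5.21, -5.07, -3.66 and -3.44 in H1-2 and -1.51, -2.61, -0.89, -0.74 and -0.98 in H2-3. It was well above background on all 5 H2-3 arrays and on none of the H1-2 or unexposed arrays, so it was at least 2.88-fold higher in H2-3 (adjusted p = 0.118). On both slides every H2-3 array read above every H1-2 array. The filter asked for 4 of 23 arrays above background; among day 1 and unexposed arrays ID1, RND3, MB21D2 and CFHR3 met that call only in H2-3, the category where they are high. Without the filter their adjusted p-values were 0.213, 0.216, 0.213 and 0.272. The bound compares the mean of the brighter category with the mean of the dimmer. Each array of the dimmer enters with its own reading or its lowest signal called above background, whichever is larger. Readings of the brighter category enter as they are, so the bound is not strict where some of them were not well above background.

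RND3, a small GTP-binding protein that loosens the actin skeleton, read between -5.00 and -4.86 in H1-2 and -1.30, -1.71, -3.24, -2.31 and -1.18 in H2-3. MB21D2, a protein of the Mab-21 family, read between -4.99 and -3.65 in H1-2 and -1.87, -2.80, -2.34, -1.72 and -2.15 in H2-3. Neither was well above background on an H1-2 array, and both were on 4 of 5 H2-3 arrays, which made them at least 1.90-fold and 1.62-fold higher (adjusted p = 0.121 and 0.118).

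CFHR3, a factor H-related complement regulator, passed the background call on 4 of the H2-3 arrays, on none of H1-2 or H0, and was at least 1.5-fold higher. RASIP1, a Ras-interacting protein of endothelium, was above background on 4 of 5 H2-3 arrays and at least 2.89-fold higher, although H2-3 baboon 2, at -3.29, lay within the H1-2 range. MEIS3, a homeobox factor, was well above background on 1 H2-3 array, so no size is given. SPINK2, a protease inhibitor of haematopoietic progenitors, differed by 1.97 ± 0.50 (SE). The probe of DNASE2B, a deoxyribonuclease, passed the background call on 1 of the H1-2 arrays, so no size is given (adjusted p = 0.205 for both genes).

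Other genes of this direction were measured in both categories. PAPSS2, which makes the sulfate donor PAPS, read -0.85, -1.13, -2.38 and -1.61 in H1-2 and -0.58, -0.24, -0.27, 0.20 and 0.73 in H2-3, without overlap (difference 1.46 ± 0.36, adjusted p = 0.182). MOB3B, a kinase activator, read -1.27, -1.14, -1.52 and -1.35 against 0.00, -1.06, -0.24, -0.21 and -0.13. H2-3 baboon 2 lay close to H1-2 and the other 4 well above it; the difference was 0.99 ± 0.23 (SE; adjusted p = 0.155), and a second MOB3B probe gave -0.21. AOX2P, an aldehyde oxidase pseudogene, differed by 1.11 ± 0.29 and its second probe by 0.06.

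**Figure D4:**
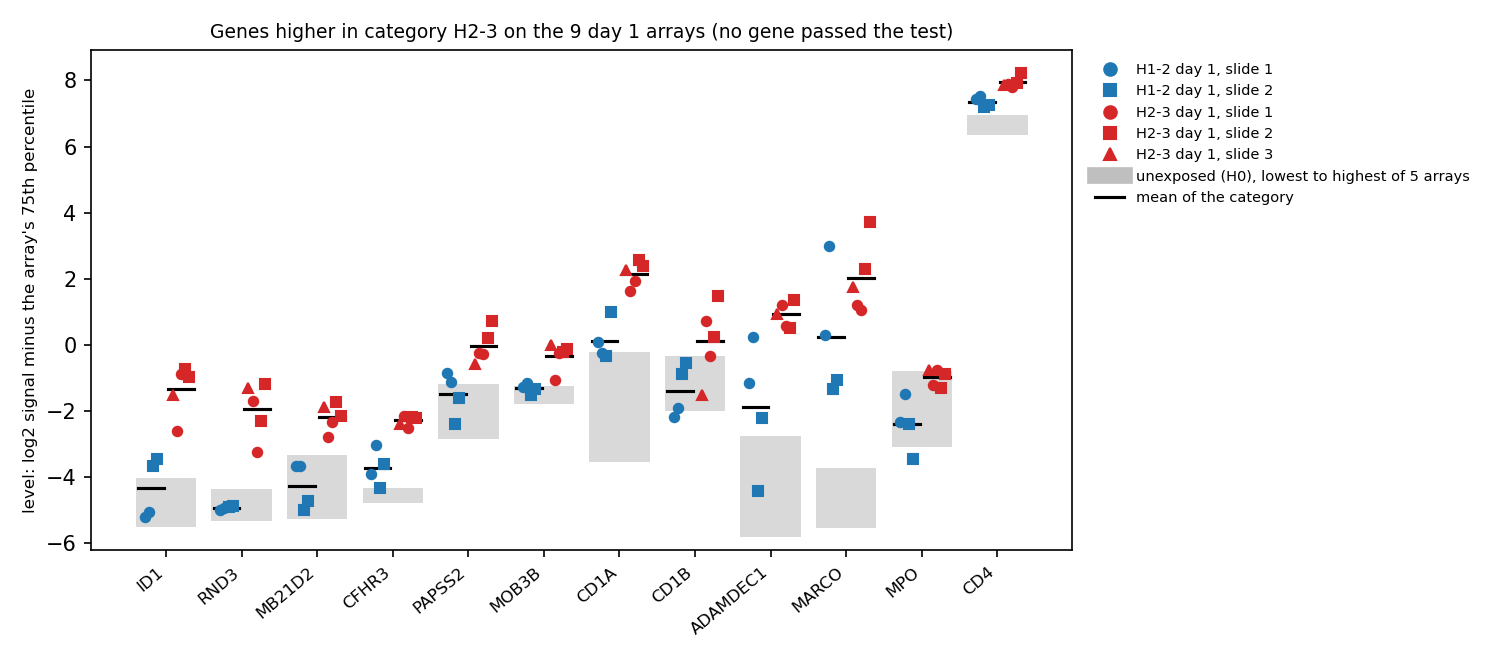
Levels (log2 signal minus the array's 75th percentile, vertical axis) of 12 genes that were higher in H2-3, none of which passed the test; symbols give the slide, black lines the category means and grey bars the unexposed range. ID1 is above the unexposed range on all 5 H2-3 arrays, as are RND3 and CFHR3 on the 4 where they were well above background. No unexposed array was well above background for these 3 genes. MARCO and ADAMDEC1 are above their unexposed ranges on all H2-3 arrays and on 4 and 3 of the 4 H1-2 arrays.

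UCHL1, a ubiquitin hydrolase that germinal centre B cells and neurons express, had the smallest p of all genes. It read -0.48, -0.74, 0.17 and 0.19 in H1-2 and -3.38, -3.69, -1.53, -3.24 and -2.07 in H2-3, where 2 of the 5 arrays were well above background. All H2-3 arrays lay below all H1-2 arrays. The difference was -2.57 ± 0.44 (SE; adjusted p = 0.118), and it was -2.0 within slide 1 and -2.84 within slide 2. Unexposed levels ran from -0.84 to 0.79, so H1-2 was at the level of unexposed blood.

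MMAB, an adenosyltransferase of vitamin B12 metabolism, read -2.99, -2.30, -2.43 and -3.0 in H1-2 and was not well above background on any H2-3 array, at least 1.26-fold lower (adjusted p = 0.123). DDT, a tautomerase related to the cytokine MIF, read 2.09, 2.10, 2.63 and 2.56 in H1-2 against -0.50, 1.17, 1.22, 0.36 and 0.56 in H2-3, without overlap. Its difference was -1.78 ± 0.38 (SE; adjusted p = 0.125), and a second DDT probe differed by -0.16.

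WNT3, a secreted signal of the WNT pathway, was split within H1-2. It read 1.61, 1.80, 5.49 and 5.00 in H1-2 and -1.11, 0.73, 1.82, -0.64 and 0.11 in H2-3, with unexposed arrays from 4.55 to 5.58. In H1-2, baboons 3 and 4 were at the unexposed level and baboons 1 and 2 were near H2-3 baboon 3. The difference of -3.30 ± 0.89 (SE; adjusted p = 0.243) was -0.43 within slide 1 and -5.51 within slide 2. The WNT list median was -0.01 over 20 genes, and 2 were lower at an unadjusted p under 0.05 (background 3.58%). Beside WNT3, the other was FZD2, a WNT receptor (-0.84 ± 0.34, adjusted p = 0.656).

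Of 31 p53 target and radiation response genes tested, 5 were higher and 1 lower at an unadjusted p under 0.05 (background 2.21% and 3.58%). The median was 0.25. CDKN1A, the p21 inhibitor of the cell cycle, read -0.86, -0.17, -2.51 and -1.78 in H1-2 and 0.16, -0.46, -0.71, 0.07 and 0.81 in H2-3. Its difference of 1.30 ± 0.56 (SE; adjusted p = 0.727) was -0.07 within slide 1 and 2.58 within slide 2. RPS27L, a p53-induced ribosomal-like protein, differed by 0.94 ± 0.32 and CCNG1, a cyclin that p53 induces, by 0.65 ± 0.22 (SE; adjusted p = 0.444 and 0.49).

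The categories overlapped for the classic radiation markers. DDB2, which finds ultraviolet lesions in DNA, differed by 0.29 ± 0.35, AEN, an apoptotic nuclease, by 0.51 ± 0.41 and FDXR, a mitochondrial reductase, by -0.19 ± 0.26 (SE; adjusted p = 1 for each). MDM2, the ubiquitin ligase of p53, differed by -0.03 ± 0.25, and the mean of its probes gave 0.13. DDB2 read 4.61, 4.84, 3.63 and 3.32 in H1-2 and from 4.05 to 4.98 in H2-3, so H1-2 baboons 1 and 2 lay among or near the highest H2-3 arrays and baboons 3 and 4 below all of them. Within slides 1 and 2 the list median was -0.15 and 0.60.

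Of 24 cell cycle genes tested, 7 were lower and 0 higher at an unadjusted p under 0.05 (background 3.58% and 2.21%). A negative difference was found for 22, and the median was -0.40, with -0.35 within slide 1 and -0.47 within slide 2. BUB1, a kinase of the spindle checkpoint, read -3.18, -2.97, -1.51 and -1.61 in H1-2 and was not well above background on any H2-3 array, at least 1.56-fold lower (adjusted p = 0.206). CDK1, the mitotic kinase, was not well above background on them either and was at least 1.27-fold lower. CCNB2, a mitotic cyclin, did not overlap between categories and differed by -1.02 ± 0.42, and MCM4, a subunit of the replicative helicase, differed by -1.38 ± 0.39 (SE; adjusted p = 0.675 and 0.319). Unexposed blood had CCNB2 between -1.01 and 0.61.

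DNA repair genes had a median of -0.15 over 24 tested, 2 of them lower at an unadjusted p under 0.05 (background 3.58%). PARP1, a sensor of DNA strand breaks, differed by -1.08 ± 0.34 (SE; adjusted p = 0.396), with -0.02 within slide 1 and -1.78 within slide 2. The BCL2 family, which governs apoptosis, had a median of 0.05 over 14 and 0 genes under that p (background 5.79% in both directions).

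MHC class II genes had a median of -0.12 over 13, with 2 lower at an unadjusted p under 0.05 (background 3.58%). Both encode the DO chains that B cells use: HLA-DOB differed by -1.51 ± 0.46 and HLA-DOA by -1.34 ± 0.43 (SE; adjusted p = 0.361 and 0.41), and the second HLA-DOA probe by 0.17. CIITA, the master activator of class II genes, did not overlap between categories (3.39, 3.46, 3.73 and 3.70 in H1-2, from 2.93 to 3.23 in H2-3) and differed by -0.47 ± 0.26 (SE; adjusted p = 0.99). It was the 1 gene of the 13 that was lower without overlap (background 1.07%), and a second CIITA probe differed by -0.19.

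MT2A and MT1X, metallothioneins that bind zinc and respond to glucocorticoids, were the 2 genes of the glucocorticoid list lower at an unadjusted p under 0.05 (background 3.58%). MT2A read 4.38, 4.14, 4.92 and 6.0 in H1-2 and 4.74, 2.56, 2.67, 2.74 and 2.71 in H2-3, so baboon 1 stood with H1-2 and the other 4 lay close together below. Its difference was -1.77 ± 0.55 (SE; adjusted p = 0.378), with -1.64 and -2.73 within the slides. MT1X gave -1.28 ± 0.46, with H2-3 baboon 1 at 2.58 and the others from 1.10 to 1.44. The list had a median of 0.02 over 14.

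Innate inflammatory genes had a median of 0.23 over 23, with -0.20 and 0.64 within the slides. At an unadjusted p under 0.05, 1 was higher and 0 lower (background 2.21% and 3.58%). The higher gene was PYCARD, the inflammasome adaptor (0.77 ± 0.29). Interferon-stimulated genes had a median of -0.08 over 27, with 1 higher and 2 lower beside the same background. Immediate early and heat shock genes had 0.08 over 16, with 0 of each. Glycolysis genes had a median of 0.23 over 20, with 2 higher and 3 lower at an unadjusted p under 0.05 (background 2.21% and 3.58%). GAPDH and PKM2, which act late in the pathway, differed by 0.50 ± 0.20 and 0.54 ± 0.22, and LDHB, the lactate dehydrogenase subunit of lymphocytes and heart, by -0.92 ± 0.33 (SE; adjusted p from 0.521 to 0.687). Ribosomal protein genes had a median of 0.11 over 77, with 2 higher and 0 lower at that unadjusted p (background 2.21% and 3.58%).

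**Figure D5:**
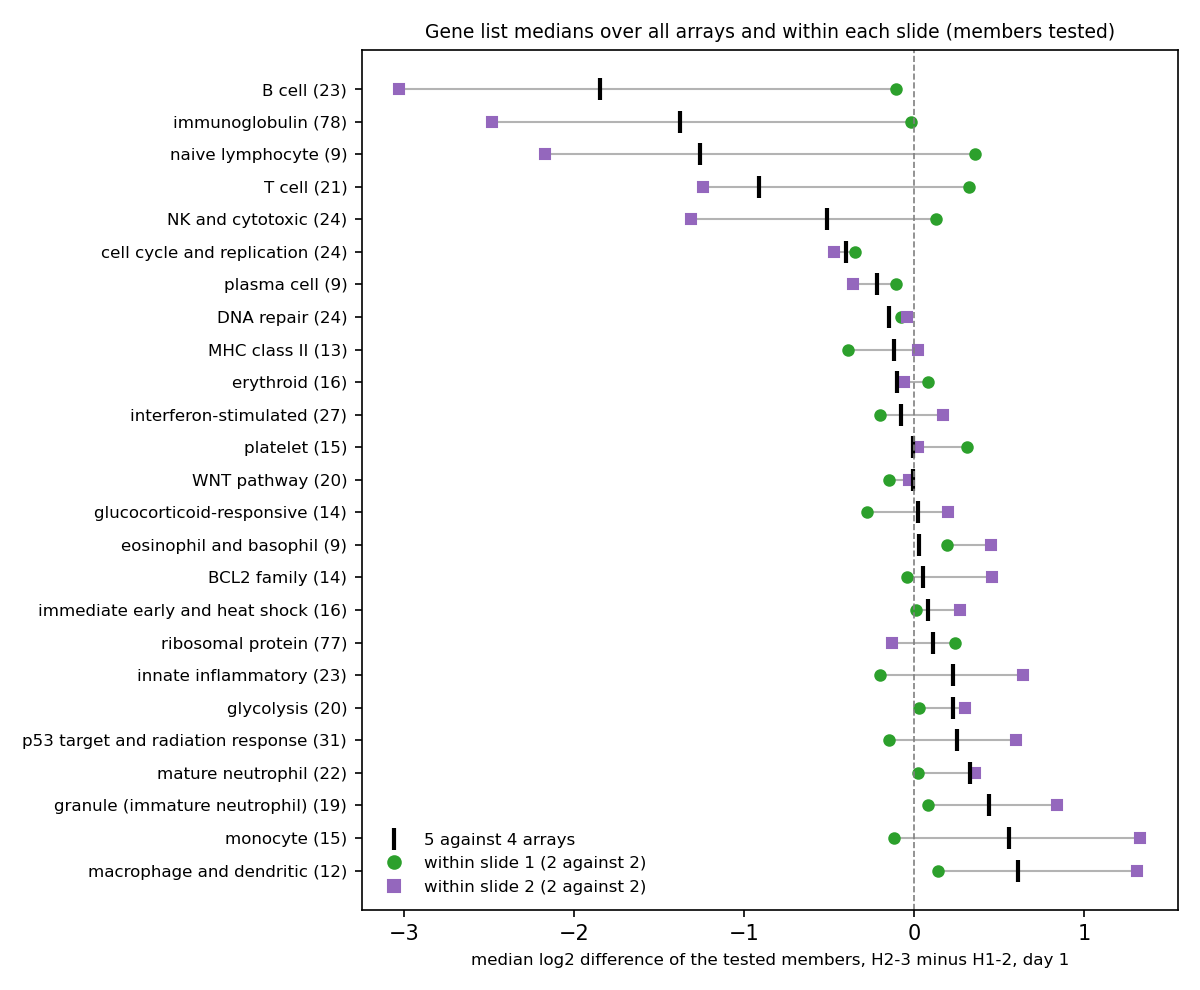
Median log2 difference (H2-3 minus H1-2, day 1) of the tested members of 24 gene lists and the immunoglobulin segments, over all 9 arrays (bars), within slide 1 (circles) and within slide 2 (squares); the number tested stands in brackets. The B cell median is -0.11 within slide 1 and -3.03 within slide 2, whereas the cell cycle median is -0.35 and -0.47.

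The slides differed in how many genes separated the categories. Within slide 1 (H1-2 baboons 1 and 2 against H2-3 baboons 2 and 3) limma called 0 genes, with 330 at an unadjusted p under 0.05. By chance 1056 would be expected at that p. Within slide 2 (H1-2 baboons 3 and 4 against H2-3 baboons 4 and 5) limma called 207, 177 lower and 30 higher. Of the 78 immunoglobulin segments, a set put together after the values had been seen, 41 were called, all lower (background 0.838%). These segments made up 19.8% of the 207 calls, and their probes may read the same transcripts. The difference between the slides itself was called for 1 gene. Called within slide 2 among the genes named above were BLK, POU2AF1, FCRLA, BLNK, CD79B, CR2, VPREB1, BHLHE41, UNG, MZB1, TXNDC5, IGLL5, SIT1, CCR7, IL7R, TCF7, GZMK, HLA-DOB, WNT3, DDT and UCHL1 as lower, and MB21D2, PAPSS2, AOX2P, ADAMDEC1 and CCNG1 as higher. Of these, FCRLA, CR2, VPREB1, BHLHE41 and UCHL1 were not well above background on most H2-3 arrays, nor MB21D2 on any H1-2 array. Each of these tests compares 2 baboons with 2.

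Against unexposed blood, 6007 genes (28.4%) were called in H2-3 and 1816 (8.59%) in H1-2; the 2 comparisons share the H0 arrays, so their values stand side by side without a test. Of the 23 B cell genes, 17 fell and 2 rose in H2-3 against H0 (background 13.5% and 15%), and 0 passed in H1-2 (background 4.42% lower and 4.18% higher), with medians of -2.34 and -0.74. The H1-2 baboons were split for this list, with means of 0.70, 0.07, 2.32 and 2.16 beside 1.54 to 2.27 in H0. A fall in baboons 1 and 2 alone was not tested. No H0 array shared a slide with H1-2, and H0 baboons 1 and 2 were scanned on another day. BLK fell by 4.37 in H2-3 against H0 (adjusted p = 0.000127) and its value in H1-2 was -0.78 (adjusted p = 0.502). For T cell genes the medians were -2.29 and -1.52, with 16 and 7 that fell, and for natural killer genes -2.45 and -1.77, with 20 and 14 that fell. UCHL1 fell by 2.49 in H2-3 (adjusted p = 0.00028) and stood at 0.08 in H1-2. For ID1, whose probe was not well above background on any H0 or H1-2 array, no test against H0 is given. CD177, by contrast, rose in both, by 3.95 and 3.58 (adjusted p = 0.000344 and 0.0141).

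On day 2, in the same baboons, 0 genes were called between the categories and 2062 (9.76%) had an unadjusted p under 0.05. The B cell median was -1.65 on day 2 beside -1.85 on day 1, and that of the immunoglobulin segments -0.93 beside -1.38. WNT3 differed by -3.0 on day 2 and BLK by -1.87, whereas MOB3B differed by -0.19 and CD1A by 0.46. Whether the difference changed between the days was tested for each gene, and 0 were called, with 421 at an unadjusted p under 0.05. With baboon as a random block, which takes in that the animals were sampled on both days, 0 were called and 832 had an unadjusted p under 0.05. Both counts were below the 1056 expected by chance.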

How the data were processed

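Blood RNA was measured on 23 one-colour arrays of 62976 spots, each with 50599 non-control probes of 60 bases. The deposited intensities were extracted, per the file headers, with Agilent Feature Extraction 10.7.3.1, which subtracts the background; the authors' deposited value table holds log2 values of 39726 probes, and was used as an alternative. Each log2 intensity was reduced by the 75th percentile of its array. A probe was kept when well above background on at least 4 of 23 arrays (27215 kept), and the brightest kept probe stood for its gene, by the gene name in the array files. Limma 3.58.1 (lmFit, eBayes; R 4.3.3) fitted 5 group means over all 23 arrays, and p-values were adjusted by Benjamini-Hochberg over 21130 genes. The script was tested on simulated data.

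Named genes were the 12 with the smallest p in each direction, since none passed, 3 genes per list, those of smallest p, and 14 markers; further list members are named as examples. The comparison, the lists and the markers were chosen with earlier results of these data known. The number of arrays limits the precision. Baboon numbers name different animals in the 2 categories. Alternatives changed the background correction, normalization, filter, probe choice, arrays, blocks and weights; those within slides, and those testing every probe, were added after seeing the data. Some genes that the rule names are not reported here; they stay in the tests, counts and list medians.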

Additional observations from a re-analysis of the deposited data

Results flagged for a closer look

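Of 252 checks for a single array far from the rest of its category on day 1, 9 were met, and chance alone meets about 1 in 20. H2-3 baboon 1 stood apart in 4 of them: it was the lowest for MS4A2 (-4.72, the others at -2.41 or more) and EPB42 (4.01, the others at 5.12 or more), and the highest for MT2A (4.74, the others at 2.74 or less) and MT1X (2.58, the others at 1.44 or less). MS4A2 encodes a chain of the IgE receptor of basophils and EPB42 a red cell skeleton protein. The MS4A2 probe was well above background on 5 of the 9 day 1 arrays, so its low readings may not be measured levels. The array of H2-3 baboon 1 also had the lowest share of probes above background and lay alone of its category on slide 3. The part of either was not tested.

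H2-3 baboon 2 was the lowest of its category for MOB3B (-1.06, the next at -0.24) and the highest for HRK, an apoptosis activator of the BCL2 family (0.63, the next at -3.73). H2-3 baboon 3 was the highest for VPREB1 (-1.19, the next at -4.36). In H1-2, baboon 1 was the highest for HAL (2.07, the next at 0.90) and baboon 3 had the highest mean of the WNT pathway list (0.59, the next at 0.27).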

How the results depend on the processing

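The count of 0 called genes held under the other normalizations, filters, probe rules, blocks and the deposited table. Array weights gave 9 (1 higher, 8 lower, 9 at least 2-fold). Leaving out 1 array gave from 0 to 14 calls, 0 to 1 higher, 0 to 13 lower and 0 to 14 at least 2-fold; without H1-2 baboon 2 there were 14 and without H2-3 baboon 3 there were 3. Genes at an unadjusted p under 0.05 then ranged from 237 (without H1-2 baboon 3) to 750 higher and from 449 to 849 lower. Normexp background gave 415 lower. With the replicate block (baboon number, 9 arrays) 706 were higher and 0 genes were called; the numbers do not pair animals across categories. Within slide 2 there were 207 calls, 30 higher and 177 lower, all 207 at least 2-fold, and 912 genes higher at an unadjusted p; within slide 1 there were 193 lower and 137 higher at that p.

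Of 2764 gene values under other settings, 25 changed sign, in 21 genes. MDM2 had 0.13 with the mean of its probes, from -0.16 to 0.13 when 1 array was left out (0.13 without H1-2 baboon 2, 0.08 and 0.04 without H2-3 baboons 2 and 3), and 0.28 within slide 2, where CD177 had -0.20 and FDXR 0.06. Within slide 1 the lymphocyte genes SIT1 (0.28), UBASH3A (0.15), IL7R (0.23), BACH2 (0.36), TCF7 (0.85), CCR7 (1.12), CD3G (0.10), VPREB1 (0.76) and IGJ (0.03) turned positive, as did HRK (0.56) and GYPB (0.05). There RNASE3 (-0.17), CD68 (-0.06), CLC (-0.85), CD163 (-0.15), CDKN1A (-0.07), DDB2 (-0.56) and MARCO (-0.52) turned negative. The cause was not tested.

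Many leading probes were at or near background in 1 category, so their folds are bounds, and 2 slides with 2 baboons of each category cannot separate slide from animal.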
